A study of Mus musculus with 4 samples.

Results

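Cxcl12, Cxcr4 and Ackr3, the chemokine and its 2 receptors, were followed as 3 named genes among the 21937 features of 4 single-cell libraries from the telencephalic midline of mouse embryos. Cxcl12 is a secreted chemokine. Cxcr4 is its G-protein-coupled receptor, and Ackr3 is an atypical receptor that binds the ligand, signals through arrestins and removes it from the extracellular space. In the developing forebrain the meninges are known as a source of Cxcl12, which attracts Cxcr4-bearing cells and holds Cajal-Retzius neurons, the early reelin-secreting neurons of the marginal zone, beneath the pial surface.

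Each library came from tissue dissected around the cortical hem of both hemispheres, which took in Cajal-Retzius cells and some of the hippocampal primordium, and pooled 5 male embryos at E11.5 or 3 male embryos at E14.5. Control embryos carried Lmx1aCre::Ai9, in which Cre driven from Lmx1a switches on the tdTomato reporter of Ai9. The gof embryos carried Lmx1aCre::Ai9::b-cat gof, which adds a gain-of-function allele of beta-catenin, so the reporter and the Cre were shared by all 4 groups. Each group was 1 library, so no difference below has a replicate check, and no p-value is given. Libraries held 6263 to 8677 barcodes and 59594082 to 113821989 UMIs, and 5317 to 7024 cells per library remained after filtering. Median depth was 8172.5 and 5644 UMIs per cell in the E11.5 control and gof libraries and 12885.5 and 14072 UMIs in the E14.5 pair, and any 2 libraries shared 12 to 18 barcodes.

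Levels are UMIs summed over cells and scaled to counts per 1000000 UMIs (CPM), with exact 95% Poisson intervals that cover counting error only. Because the libraries are 3′ counts, with 1 tag per transcript, CPM of different genes are compared without a length correction. A gene was called higher or lower where its intervals in 2 sums were apart, the sums differed 1.5-fold or more and either reached 10 CPM. Log2 ratios were taken on CPM with a pseudocount of 1. Cells were placed in classes by counts of marker genes that do not include the 3 genes, and a class is named "like" its markers. Sums over all cells cannot tell apart fewer cells of a type from less RNA per cell, so values within classes follow each library total.

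Cxcl12 lies on chromosome 6 (chr6:117168535-117181367, plus strand), Cxcr4 on chromosome 1 (chr1:128588199-128592293, minus strand) and Ackr3 on chromosome 1 (chr1:90203980-90216751, plus strand) of GRCm38, and all 3 are annotated as protein-coding. The 250 bases before each start are shown because the gof allele acts on beta-catenin, whose DNA-binding partners are the TCF/LEF factors. Sequences are from RefSeq (GRCm38.p6), read 5′ to 3′ on the strand of the gene, and capitals mark a TCF/LEF core (CTTTGAT or CTTTGAA on either strand) or a TATA box (TATAAA on the gene's strand).
Cxcl12 (chr6:117168285-117168534): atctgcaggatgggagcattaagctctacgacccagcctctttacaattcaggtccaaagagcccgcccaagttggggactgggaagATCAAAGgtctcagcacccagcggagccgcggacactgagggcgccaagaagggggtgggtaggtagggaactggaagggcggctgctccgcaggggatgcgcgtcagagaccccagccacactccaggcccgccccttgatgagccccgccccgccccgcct
Cxcr4 (chr1:128592300-128592549): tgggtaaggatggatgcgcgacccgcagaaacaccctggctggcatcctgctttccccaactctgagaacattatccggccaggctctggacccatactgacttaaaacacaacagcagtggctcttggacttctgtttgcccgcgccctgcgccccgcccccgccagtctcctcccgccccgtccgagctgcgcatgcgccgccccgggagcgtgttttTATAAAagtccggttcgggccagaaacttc
Ackr3 (chr1:90203730-90203979): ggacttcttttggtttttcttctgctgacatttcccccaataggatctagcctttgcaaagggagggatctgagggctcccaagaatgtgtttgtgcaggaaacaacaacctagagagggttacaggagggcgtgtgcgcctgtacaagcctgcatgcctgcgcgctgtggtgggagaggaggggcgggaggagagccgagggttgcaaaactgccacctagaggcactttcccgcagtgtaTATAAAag
The Cxcl12 window held 1 TCF/LEF core, on the antisense strand with its first base 163 bases before the start, and neither receptor window held one. Of the 32851 RefSeq promoter windows of the same length, 7.48% held such a core. The receptor windows each held 1 match to the TATA box letters, which were found in 7.59% of all windows, and the Cxcl12 window held none. The match began 30 bases before the start in Cxcr4 but only 8 bases before it in Ackr3. A match of letters describes the window and shows no binding.

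Cxcl12 was read almost wholly from mesenchymal or meningeal-like cells at E11.5. In the whole libraries it stood at 25.5 CPM in the E11.5 control, 59.7 CPM in the E11.5 gof, 6.72 CPM in the E14.5 control and 12.2 CPM in the E14.5 gof library. It was the 1 member that was called in the whole libraries: it was higher in gof by a log2 ratio of 1.20 at E11.5, where 4.39% of 8413 genes were higher, and by 0.77 at E14.5, where 3.04% of 9751 genes were higher. With a pseudocount of 5 CPM the E14.5 ratio was 0.55, under the 1.5-fold limit, so that call ended. Over all genes the median log2 ratios were -0.11 and -0.09.

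The class of mesenchymal or meningeal-like cells, gated on 5 of 12 markers such as the collagen genes Col1a1 and Col3a1 and the proteoglycan gene Lum, held Cxcl12 at 232 CPM (95% interval 221 to 244) in the E11.5 control and 338 CPM (325 to 351) in the E11.5 gof library. At E14.5 it held 325 CPM (285 to 369) in the control and 380.5 CPM (353 to 409) in the gof library. In all 4 libraries the class was far above every other gated class of at least 50 cells. The gof minus control log2 ratios of 0.54 and 0.23 were under the fold used for a call, which 3.58% and 3.37% of genes passed upward. Both passed that fold, at 0.83 and 0.85, under a stricter filter that kept cells of 2000 or more genes with no more than 5% mitochondrial UMIs, and the E14.5 ratio turned to -0.071 when the gate asked for 1 more marker and to -0.10 as a mean over cells. After every cell was thinned to 3000 UMIs, 48.3% and 51.9% of these cells had a Cxcl12 UMI at E11.5 and 51.8% and 59.0% at E14.5. Without thinning the shares were 70.7%, 70.1%, 69.0% and 83.3%.

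The number of these cells moved more than their level. They were 644 cells (9.89% of cells) in the E11.5 control, 1112 cells (15.8%) in the E11.5 gof, 58 cells (0.878%) in the E14.5 control and 84 cells (1.58%) in the E14.5 gof library. They held 92.2% of all Cxcl12 UMIs in the E11.5 control, 87.6% in the E11.5 gof, 35.7% in the E14.5 control and 71.6% in the E14.5 gof library. Under the stricter filter on genes and mitochondrial UMIs the E14.5 control share was 18.2%. At both ages the gof library therefore had the larger share of mesenchymal cells, and at E14.5 also the larger share of its Cxcl12 in them. How much meninges each dissection took was not recorded, and the dissection and the genotype cannot be told apart with 1 library per group.

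Genes of the neural marker lists were also read in the class and differed between the libraries. The progenitor list includes Vim, Nes, Hes1 and Notch1, and how much of its sum is neural RNA in this class was not tested. The 11 neural progenitor markers summed to 2407 and 1911 CPM in the E11.5 control and gof class and to 2752 and 2894 CPM at E14.5, and the 10 pan-neuronal markers to 307 and 170.1 CPM and to 762 and 479 CPM. At E11.5 the progenitor gene Sox2 was at 97.1 CPM in control against 18.1 CPM in gof, and Cxcr4 at 12.6 against 3.02 CPM (called lower, as were 9.88% of 8677 genes). The E14.5 values of Sox2 and the single values of the other list genes are not given. The summed mesenchymal markers moved the same way as Cxcl12, at 3456 and 5465 CPM at E11.5 and 4701 and 7824 CPM at E14.5. Without tdTomato-positive cells, defined by at least 2 tdTomato UMIs, Cxcl12 was at 263 and 342 CPM at E11.5 and at 419 and 425 CPM at E14.5, where the log2 ratio was 0.02. The part of this RNA in the difference was otherwise not tested.

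Within the class the raw UMIs of the ligand were spread unevenly over cells. The tenth of cells with the most Cxcl12 UMIs held 38.6% of them in the E11.5 control, 38.8% in the E11.5 gof, 41.8% in the E14.5 control and 37.5% in the E14.5 gof library, and the highest cell had 29, 24, 22 and 43 UMIs. These counts were not thinned, and median depths of the class were 7725, 6081, 9901 and 16372 UMIs. The unevenness that depth and counting error alone would give was not computed. The arachnoid markers Aldh1a2, a retinoic acid synthesis enzyme, and Slc6a13, a GABA transporter, were near 0 at E11.5 (0.580 and 1.84 CPM, and 2.17 and 1.31 CPM) and at 126 and 144 CPM, and 84.3 and 196 CPM, at E14.5. The remaining arachnoid marker of the list, Angptl2, is not given here. Of the pia markers S100a6, Ngfr and Lama1, S100a6 was at 321 and 586 CPM in the E11.5 control and gof class, and the others are not given. The Cxcl12 intervals of the class given above were higher at E14.5 than at E11.5 in both genotypes, but both rises were under 1.5-fold. They were also smaller than the all-gene median log2 ratios between the ages in this class, 0.62 in control and 0.55 in gof. Between the ages 39.7% and 43.3% of genes were called higher in the class.

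Cells just outside the gate carried the ligand too. Cells left unassigned with 3 or 4 of the 12 markers held Cxcl12 at 142 CPM (26 cells, 90.1 to 213) in the E11.5 control and 335 CPM (109 cells, 288 to 387) in the E11.5 gof library, or 1.32% and 6.19% of the library's Cxcl12 UMIs. Cells 1 marker short of the gate numbered 57, 86, 37 and 18 in the 4 libraries, and cells exactly at it 98, 173, 23 and 9. All neural and unassigned cells of the E11.5 gof library together read 7.84 CPM against 1.65 CPM in the control, and these 109 cells held 182 of the 286 Cxcl12 UMIs behind the gof value.

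Away from the mesenchyme, erythroid-like cells, which should lack the ligand, were read for a free-RNA level. They were at 3.39 CPM (1.46 to 6.68) and 1.09 CPM (0.225 to 3.19) at E11.5, with 0.602% and 0% of thinned cells holding a UMI. The 0 of 216 gof cells allowed a share of up to 1.39%. Their median depths were 13244.5 and 11485.5 UMIs, against 7725 and 6081 UMIs in the mesenchymal class. Globin RNA took up a large part of their UMIs, with Hbb-y alone at 273683 and 256607 CPM. This lowers the CPM and the thinned share that free RNA can reach in them, so other classes may hold more. At E14.5 only 6 and 3 erythroid-like cells were found, too few to give a level. Progenitors outside the hem gate were at 1.01, 2.43, 0.607 and 0.669 CPM. Endothelial-like cells, which line vessels, read 12.0 CPM (46 cells) in the E11.5 control and 39.8 CPM (119 cells) in the E11.5 gof library, a log2 ratio of 1.65 called higher, as were 1.38% of 8404 genes. Both endothelial values lay far under the mesenchymal values of the same libraries.

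**Figure D1:**
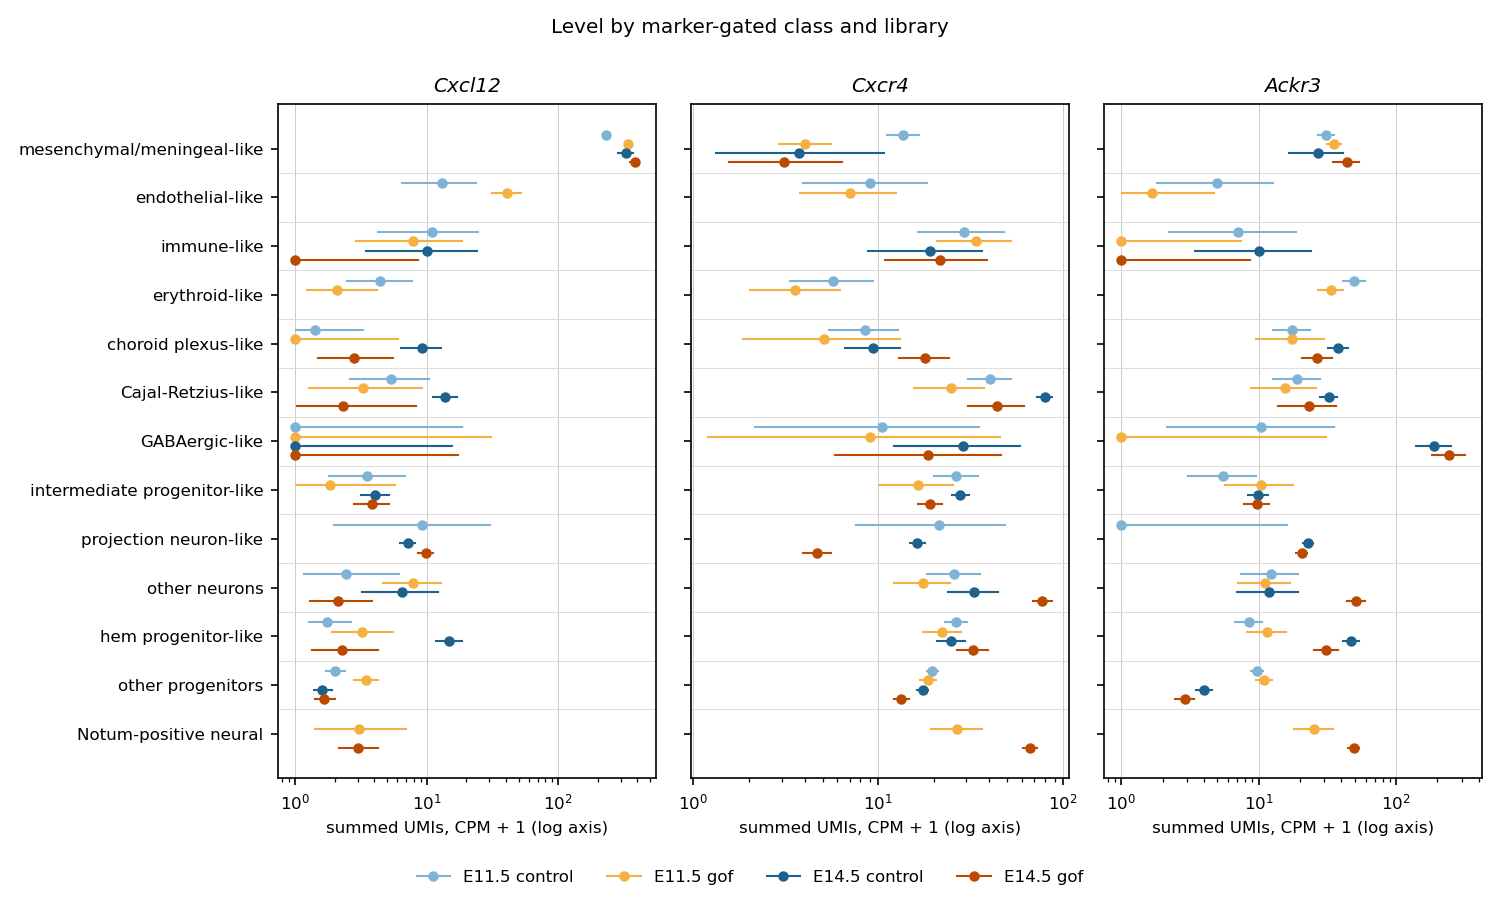
Summed level of Cxcl12, Cxcr4 and Ackr3 (CPM + 1, log axis) in each marker-gated class, with 1 point per library and its exact 95% Poisson interval, for classes of at least 20 cells. Cxcl12 is highest in mesenchymal or meningeal-like cells in every library, Cxcr4 in Cajal-Retzius-like cells of the E14.5 control and other neurons of the E14.5 gof library, and Ackr3 in GABAergic-like cells at E14.5.

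In the E14.5 control library a second set of cells carried Cxcl12 that the E14.5 gof library had at a lower level. Hem progenitor-like cells, gated on Lmx1a and further hem markers such as Wnt3a, stood at 0.761 CPM in the E11.5 control, 2.22 CPM in the E11.5 gof, 13.9 CPM in the E14.5 control and 1.27 CPM in the E14.5 gof library. The E14.5 control stood apart from the other 3 libraries. The gof minus control log2 ratio at E14.5 was -2.71 (ratio interval -5.36 to -2.03, called lower, as were 12.7% of 9805 genes), and between the control ages it was 3.08 (called higher, as were 46.7% of 9603 genes, with an all-gene median of 0.54). In the tdTomato-positive hem progenitors the E14.5 values were 13.9 and 1.46 CPM. The gof cells were the deeper ones, with medians of 12588 UMIs in 318 control cells and 18061 UMIs in 144 gof cells.

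Cajal-Retzius-like cells and choroid plexus-like cells, the secretory epithelium that borders the hem, showed the same order at E14.5. Cajal-Retzius-like cells were at 12.9 CPM (79 UMIs in 459 cells) in the control and 1.30 CPM (1 UMI in 46 cells) in the gof library, and choroid plexus-like cells at 8.14 and 1.78 CPM. The choroid plexus-like classes were unlike, with their marker Ttr at 73031.5 CPM in the control and 17133.6 CPM in the gof library. At least 2 UMIs of Notum were read in 80 of the 106 gof cells, and 20.7% of 10129 genes were called lower. For the Cajal-Retzius pair, where 9.96% of 9993 genes were called lower, the ratio interval of -8.62 to -0.78 on the log2 scale shows how little 1 UMI fixes. All tdTomato-positive neural cells together were at 8.99 CPM in the control and 2.32 CPM in the gof library, a log2 ratio of -1.59. Of these, 343 of 1087 control cells and 32 of 1022 gof cells were Cajal-Retzius-like. The part of these differences in make-up in the Cxcl12 values was not tested. Pallial projection neuron-like cells did not share the order, with 6.16 and 8.81 CPM, and they held 23.3% and 19.6% of the Cxcl12 UMIs of the E14.5 libraries.

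Mesenchymal RNA in these neural cells was given by the 12 mesenchymal markers. The summed mesenchymal markers in hem progenitor-like cells were at 131 CPM in the E14.5 control and 110.2 CPM in the E14.5 gof library, and in Cajal-Retzius-like cells at 25.4 and 35.2 CPM. The hem markers of the hem progenitor-like class summed to 5359 CPM in the control and 2517 CPM in the gof library, so the classes under comparison differed in the markers that gate them. The part of that difference in the Cxcl12 values was not tested.

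**Figure D2:**
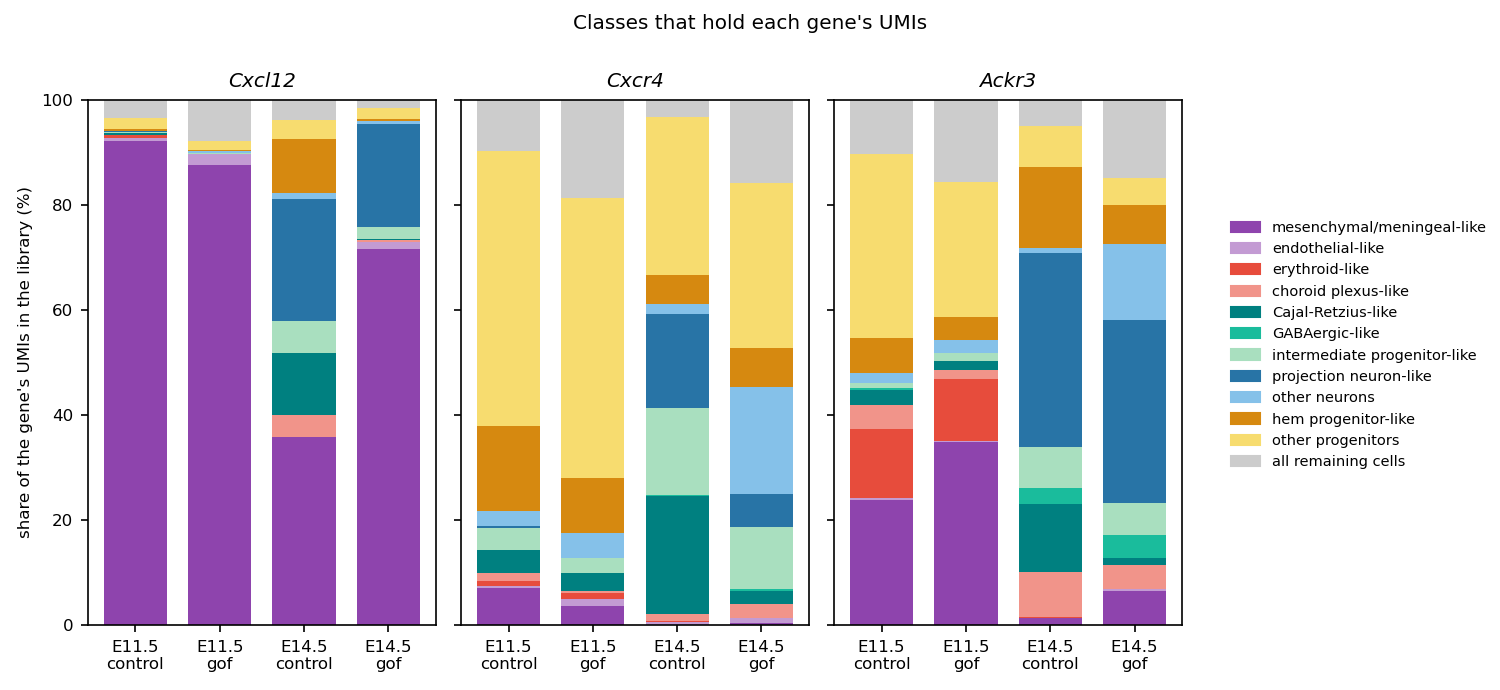
Share (%) of each gene's UMIs that lies in each class, with 1 stacked bar per library. Mesenchymal or meningeal-like cells hold 92.2% and 87.6% of Cxcl12 UMIs in the E11.5 bars and 35.7% and 71.6% in the E14.5 bars, and Cajal-Retzius-like cells hold 22.4% of Cxcr4 UMIs in the E14.5 control and 2.44% in the E14.5 gof bar.

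Cxcr4, the signalling receptor, was at 18.1 and 13.0 CPM in the E11.5 control and gof libraries and at 21.6 and 16.1 CPM at E14.5. The gof libraries were lower by log2 ratios of -0.45 and -0.40, and neither passed the 1.5-fold limit, which 4.01% and 8.1% of genes passed downward. The library totals hid larger differences of both signs between classes.

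Cajal-Retzius-like cells, gated on Trp73 and 3 or more further markers such as Reln and Lhx1, had the highest Cxcr4 level of the gated classes of at least 50 cells in both control libraries. They stood at 39.2 CPM (29.5 to 51.2) in the E11.5 control, 23.7 CPM (14.7 to 36.2) in the E11.5 gof, 78.6 CPM (71.7 to 85.9) in the E14.5 control and 43.0 CPM (29.6 to 60.4) in the E14.5 gof library. In both pairs the gof value was the lower one. The intervals overlapped at E11.5 (log2 ratio -0.70, where 3.19% of 9080 genes were called lower) and were separate at E14.5 (log2 ratio -0.86, called lower). Of thinned cells, 12.2%, 5.67%, 19.9% and 10.9% had a Cxcr4 UMI, and of unthinned cells 23.4%, 9.83%, 59.0% and 41.3%.

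The class itself changed in size and in make-up. It held 184, 173, 459 and 46 cells, and 4.36%, 3.27%, 22.4% and 2.44% of the Cxcr4 UMIs of the 4 libraries. At E14.5 its summed Cajal-Retzius markers were at 5758 CPM in the control cells but 2792 CPM in the gof cells, Reln was at 3268 and 1083 CPM, and projection neuron markers were at 801 and 1305 CPM. The lower Cxcr4 in the 46 gof cells thus came with lower markers of the class, and their part in it was not tested. Between the control ages Cxcr4 was higher at E14.5 by 0.99, called higher, as were 37.3% of 9799 genes, against an all-gene median of 0.49 in this class.

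The level at which free RNA could be read for Cxcr4 was taken from the classes lowest in it. Erythroid-like cells stood at 4.66 and 2.55 CPM at E11.5, with 0% and 0.926% of thinned cells holding a UMI. The 0 of 166 control cells allowed a share of up to 1.81%. The limit from globin RNA given above for Cxcl12 holds for Cxcr4 in these cells too. Mesenchymal or meningeal-like cells at E14.5 stood at 2.72 and 2.08 CPM, with 0 of 56 and 0 of 83 thinned cells holding a UMI, which allowed up to 5.36% and 3.61%. Immune-like cells, a blood lineage class known to carry Cxcr4, were at 28.0 and 32.8 CPM at E11.5 and 18.1 and 20.7 CPM at E14.5 in 30 to 62 cells.

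Progenitors carried Cxcr4 at an intermediate level, between 12.4 and 31.4 CPM. Progenitors outside the hem were at 18.7 and 17.7 CPM at E11.5 and 16.4 and 12.4 CPM at E14.5, and as the most numerous class they held 52.4%, 53.3%, 30.1% and 31.5% of Cxcr4 UMIs. Hem progenitor-like cells were at 25.5, 21.3, 23.9 and 31.4 CPM. Intermediate progenitor-like cells, the Eomes-positive daughters of cortical progenitors, were at 25.5 and 15.4 CPM at E11.5 and 26.9 and 18.1 CPM at E14.5. None of these 6 gof minus control pairs was called, although the E14.5 ratio of the intermediate progenitor-like cells of -0.55 lay near the limit. It passed the fold used when the gate asked for 1 more marker (-0.86), when 2 times the doublets were removed (-0.69), as a mean over cells (-0.61) and under the stricter cell filter (-0.60), and stayed under it without doublet removal (-0.54) and with a pseudocount of 5 CPM (-0.46).

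Pallial projection neuron-like cells at E14.5 showed the lowest gof minus control Cxcr4 ratio of the gated classes compared at that age. The class stood at 15.3 CPM (13.8 to 16.9) in 1605 control cells and 3.66 CPM (2.91 to 4.53) in 1544 gof cells, a log2 ratio of -1.81 (ratio interval -2.42 to -1.72). It was called lower, as were 7.28% of 9139 genes, and 0.394% of the genes of that comparison had a lower log2 ratio. Of thinned cells, 3.81% and 1.04% had a UMI, at median depths of 13831 and 13406.5 UMIs. The gof value of 3.66 CPM lay near the levels given above for the classes lowest in Cxcr4. The size of the ratio therefore rests on a value near the free-RNA level, and the part of free RNA in it was not tested.

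The lower Cxcr4 of the gof projection neurons was seen in cells with and without the reporter. In tdTomato-negative cells the values were 13.5 and 2.80 CPM (log2 ratio -1.93, called lower, as were 7.51% of 9109 genes), and in tdTomato-positive cells 27.4 and 12.4 CPM (log2 ratio -1.09, called lower, as were 6.93% of 9467 genes). These were 1457 and 1447 reporter-negative and 148 and 97 reporter-positive cells. The reporter-negative gof value of 2.80 CPM also lay near the levels of the classes lowest in Cxcr4. Summed Cajal-Retzius markers in the whole class were at 450.3 CPM in the control and 225 CPM in the gof library, and their part in the Cxcr4 values was not tested.

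Reporter-negative cells also had a called lower gof value among E14.5 intermediate progenitor-like cells. The tdTomato-negative intermediate progenitor-like cells had Cxcr4 at 23.6 CPM in the control and 9.24 CPM in the gof library (log2 ratio -1.26, called lower, as were 13.2% of 9223 genes), while the reporter-positive cells of that class read 46.5 and 43.7 CPM (log2 ratio -0.09, not called). In tdTomato-negative progenitors outside the hem the E14.5 log2 ratio was -0.49, under the 1.5-fold limit. Over all tdTomato-negative neural cells Cxcr4 was at 17.9 and 8.54 CPM at E14.5 (log2 ratio -0.98, called lower, as were 7.89% of 9452 genes), and over all tdTomato-positive neural cells at 38.4 and 42.1 CPM (log2 ratio 0.13, not called). The negative sets held 116 Cajal-Retzius-like cells in the control and 14 in the gof library, and the part of this in the ratio was not tested. Over all neural cells at E11.5 the reporter-negative values were 19.0 and 15.6 CPM and the reporter-positive values 20.6 and 19.8 CPM. Whether the reporter-positive and reporter-negative ratios differ was not tested, and a cell with under 2 tdTomato UMIs may still have come from the Lmx1aCre lineage.

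Cajal-Retzius-like cells split by the reporter as follows. In the E14.5 control the 343 positive cells read Cxcr4 at 81.7 CPM and the 116 negative cells at 67.3 CPM. In the E14.5 gof library the 32 positive cells read 47.4 CPM, called lower than the control positive cells by a log2 ratio of -0.77, as were 9.25% of 9912 genes. At E11.5 the negative cells, 160 in control and 161 in gof, read 41.2 and 16.1 CPM (log2 ratio -1.30, called lower, as were 2.48% of genes), while only 24 and 12 positive cells were found.

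**Figure D3:**
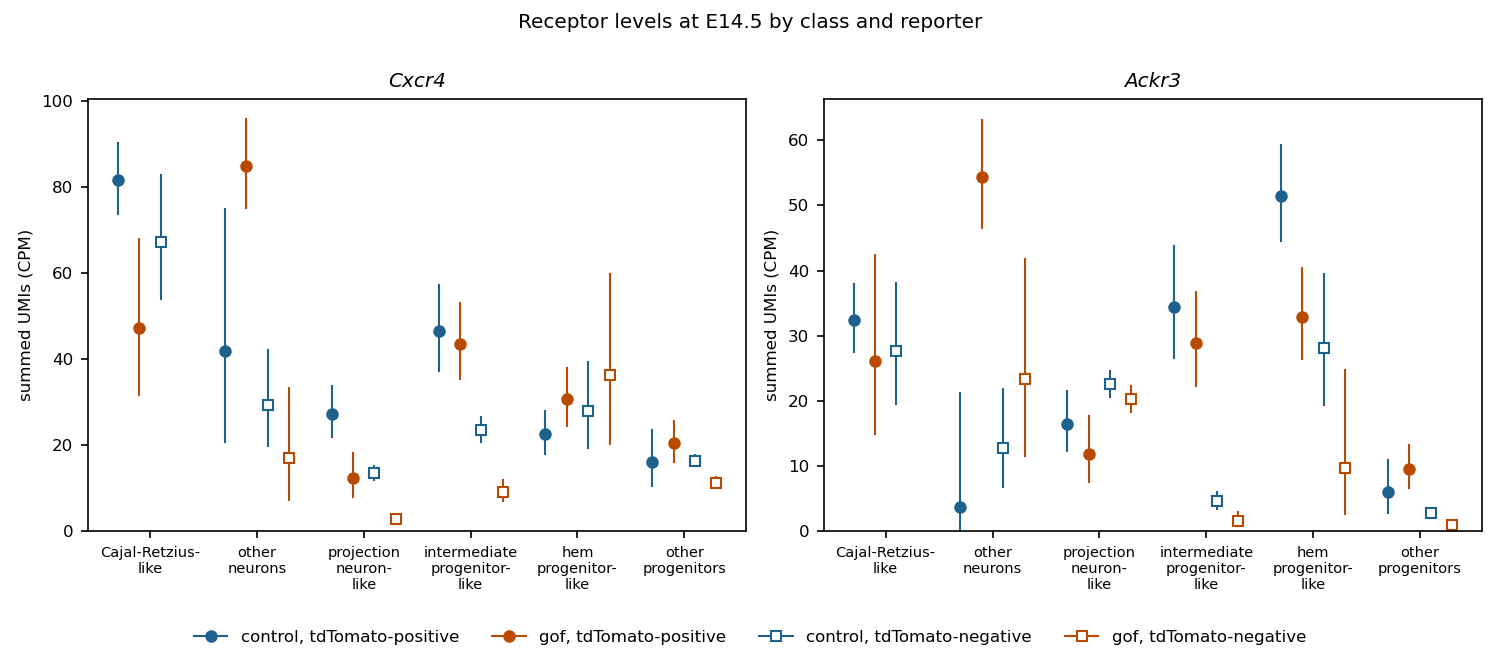
Summed level (CPM) of Cxcr4 and Ackr3 at E14.5 in tdTomato-positive (filled) and tdTomato-negative (open) cells of the neural classes, with 1 point per library and its exact 95% Poisson interval, for sets of at least 20 cells. In E14.5 projection neurons Cxcr4 is lower in gof in both reporter sets (27.4 and 12.4 CPM, 13.5 and 2.80 CPM), and in E14.5 intermediate progenitors it is lower in gof in the negative set (23.6 and 9.24 CPM).

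Neurons that met neither the Cajal-Retzius, GABAergic nor projection neuron gate went the other way at E14.5. Cxcr4 in them stood at 24.9 CPM in the E11.5 control, 16.5 CPM in the E11.5 gof, 32.0 CPM in the E14.5 control and 76.2 CPM (67.5 to 85.7) in the E14.5 gof library. The E14.5 gof value was above the other 3, and its log2 ratio of 1.22 over the control was called higher, as were 12.8% of 9821 genes. Of thinned cells, 10.0% and 22.0% had a UMI at E14.5.

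These neurons were not the same kind of cell in the E14.5 libraries. Their leading genes were Necab1, Rgs6 and Cdh20 in the control and Hoxb1, Pex5l and Map3k6 in the gof library, and tdTomato-positive cells made up 20 of 147 control and 215 of 320 gof cells. The reporter-positive cells carried the difference, with 41.9 CPM in the control and 85.03 CPM in the gof library (called higher, as were 8.14% of 9928 genes), while the reporter-negative cells read 29.5 and 17.0 CPM. The 2 sets are therefore given as values under a shared gate, and no name is given to them.

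Notum-positive neural cells, defined by at least 2 UMIs of Notum, a secreted Wnt feedback inhibitor, were found almost only in the gof libraries: 3 cells in the E11.5 control, 129 in the E11.5 gof, 2 in the E14.5 control and 449 in the E14.5 gof library. Their Cxcr4 level was 25.7 CPM (18.2 to 35.3) at E11.5 and 65.1 CPM (59.6 to 70.9) at E14.5. At E14.5 they were 449 of 5160 neural cells and held 38.7% of the library's Cxcr4 UMIs. Of thinned Notum-positive cells, 4.03% had a Cxcr4 UMI at E11.5 and 21.6% at E14.5. In the gof libraries, 67 of the 129 Notum-positive cells at E11.5 and 27 of the 449 at E14.5 were tdTomato-negative.

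Set against the tdTomato-positive neural cells of the E14.5 control (38.4 CPM), Notum-positive cells were called higher in Cxcr4 by 0.75 on the log2 scale (0.60 to 0.93), as were 10.1% of 10284 genes. With cells counted as Notum-positive from 1 UMI the ratio was 0.58, just under the fold used. Set against tdTomato-positive Notum-negative cells of the same gof library (26.5 CPM), they were called higher by 1.26, as were 10.6% of 9865 genes. At E11.5 the corresponding log2 ratios of 0.31 and 0.45 were not called. The median depth of the E14.5 Notum-positive cells was 15332 UMIs. It was 13450 UMIs in the control tdTomato-positive cells and 16275.5 UMIs in the gof tdTomato-positive Notum-negative cells.

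The Notum-positive cells were a mixture, and the receptor level differed between 3 gated kinds of cell among them. At E14.5, 123 of them met the neuron gates and read Cxcr4 at 104 CPM (90.9 to 120), 100 were progenitors at 42.6 CPM (34.1 to 52.6) and 80 were choroid plexus-like at 19.0 CPM (13.2 to 26.4). The intervals of the 3 sets were separate. The rest of the 449 cells fell in none of these 3 sets, and their level is not given. The 27 Notum-positive cells without the reporter read 78.4 CPM (49.1 to 119). Choroid plexus-like cells as a whole read 7.44, 4.12, 8.43 and 16.9 CPM in the 4 libraries.

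Progenitors outside the hem held similar shares of the Cxcr4 UMIs of both E14.5 libraries, 30.1% and 31.5%, while the shares of the neuron classes differed. Cajal-Retzius-like and projection neuron-like cells held 22.4% and 18.0% of Cxcr4 UMIs in the control and 2.44% and 6.15% in the gof library. Other neurons held 1.90% and 20.5%, and unassigned cells 2.37% and 14.7%.

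Ackr3, the scavenging receptor, was nearly level in the whole libraries, at 12.7 and 15.2 CPM at E11.5 and 15.0 and 15.1 CPM at E14.5, with gof minus control log2 ratios of 0.24 and 0.01 that were not called. Its distribution over classes was unlike that of Cxcr4. At E14.5 the GABAergic-like cells, inhibitory neurons of subpallial origin gated on Dlx and Gad genes, had the highest level, with 187 CPM (138 to 249) in 28 control cells and 243 CPM (183 to 316) in 26 gof cells. Of these thinned cells, 59.3% and 56.0% had a UMI, and they held 3.15% and 4.34% of the library's Ackr3 UMIs.

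Hem progenitor-like cells had more Ackr3 at E14.5 than at E11.5 in both genotypes. The hem class read 7.48 CPM in the E11.5 control, 10.5 CPM in the E11.5 gof, 46.0 CPM (40.2 to 52.3) in the E14.5 control and 29.9 CPM (24.1 to 36.5) in the E14.5 gof library. Both E14.5 values were above both E11.5 values, by log2 ratios of 2.47 in control and 1.43 in gof, called higher, as were 46.7% and 37% of genes, against all-gene medians of 0.54 and 0.47. At E14.5 the gof value was called lower than the control by a log2 ratio of -0.61, a call that ended without doublet removal (-0.56) and with a pseudocount of 5 CPM (-0.55). In reporter-positive cells the values were 51.5 and 32.9 CPM (log2 ratio -0.63, called lower, as were 13.4% of 9764 genes). The fewer reporter-negative hem cells, 84 in control and 26 in gof, read 28.1 and 9.69 CPM, a log2 ratio of -1.44.

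Progenitors outside the hem had the opposite order over age, with Ackr3 at 8.71 and 9.92 CPM at E11.5 and 2.98 and 1.89 CPM at E14.5, all under the 10 CPM needed for a call. The hem class therefore stood below or near the other progenitors in Ackr3 at E11.5 and well above them at E14.5, with separate intervals in both E14.5 libraries. Choroid plexus-like cells read 16.5, 16.5, 36.9 and 25.8 CPM. Reporter-positive intermediate progenitor-like cells read 34.4 and 28.8 CPM at E14.5, and reporter-negative ones 4.61 and 1.67 CPM.

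Among neurons, Cajal-Retzius-like cells read Ackr3 at 18.2, 14.7, 31.4 and 22.1 CPM, and neither gof minus control log2 ratio (-0.29 and -0.49) was called. Pallial projection neuron-like cells read 21.8 and 19.5 CPM at E14.5 and held 36.9% and 35.0% of the Ackr3 UMIs. The class in which Cxcr4 had its lowest ratio thus had an Ackr3 log2 ratio of -0.15 (-0.34 to 0.03). Neurons outside the named gates read 10.9 CPM in the E14.5 control and 50.3 CPM in the E14.5 gof library (log2 ratio 2.10, called higher), again with unlike cells behind the 2 values.

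Notum-positive cells read Ackr3 at 24.4 CPM (17.1 to 33.8) at E11.5 and 48.0 CPM (43.4 to 53.1) at E14.5. Against control tdTomato-positive cells the log2 ratio was 1.21 at E11.5 (9.96 CPM in control, called higher, as were 6.58% of genes) and 0.54 at E14.5 (32.8 CPM in control, not called). At E11.5, 67 of the 129 Notum-positive cells were tdTomato-negative, so the 2 sets of that comparison also differed in the reporter. The E14.5 ratio passed the fold used under the stricter cell filter (0.59) and as a mean over cells (0.64). Against tdTomato-positive Notum-negative cells of the same library it was 0.86 at E11.5 (not called) and 1.15 at E14.5 (21.1 CPM, called higher). Notum-positive neurons read 58.6 CPM and Notum-positive progenitors 44.6 CPM at E14.5.

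Outside the neural classes, Ackr3 was read in mesenchymal or meningeal-like cells at 30, 34.4, 25.8 and 42.7 CPM and in erythroid-like cells at 48.3 and 32.4 CPM at E11.5. The erythroid values, with 13.9% and 11.1% of thinned cells holding a UMI, were above the neural values of the same libraries, so this class gave no background level for Ackr3. Endothelial-like cells at E11.5, with 4.01 and 0.675 CPM, and immune-like cells, with 6.01 and 0 CPM at E11.5 (0 of 62 gof cells, which allowed a share of up to 4.84%), were the lowest.

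**Figure D4:**
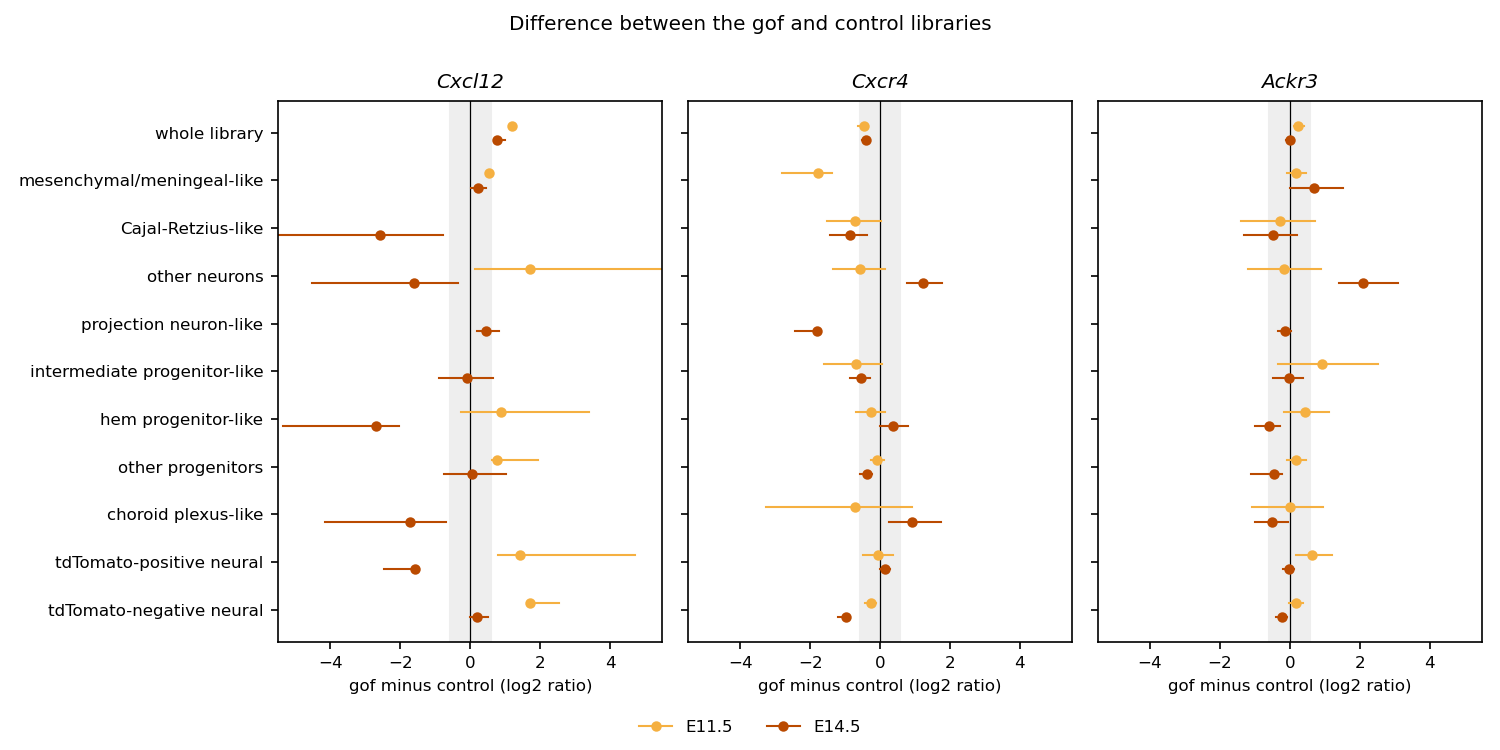
Gof minus control log2 ratio (CPM with a pseudocount of 1) of each gene by class at both ages, with the exact interval of the ratio as bars clipped at the edges of the axis and the range under 1.5-fold shaded, for pairs with at least 10 UMIs. At E14.5 Cxcl12 lies below 0 in hem progenitors (-2.71), Cxcr4 below 0 in projection neurons (-1.81) and above 0 in other neurons (1.22), and Ackr3 above 0 in other neurons (2.10).

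The 2 receptors were seldom read in the same cell at a depth of 3000 UMIs. In E14.5 control Cajal-Retzius-like cells 10 cells had both, 81 only Cxcr4 and 31 only Ackr3 of 457 cells. Ackr3 was read in 10.99% (5.40% to 19.3%) of the cells with Cxcr4 and 8.47% of those without. In E14.5 Notum-positive cells 17 had both, 78 only Cxcr4 and 39 only Ackr3 of 439 cells, with Ackr3 in 17.9% (10.8% to 27.1%) of the cells with Cxcr4 and 11.3% (8.19% to 15.2%) of those without. In both sets the intervals overlapped, so no link or exclusion of the receptors within cells was detectable at this depth.

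The ligand and the scavenging receptor were read together in some mesenchymal or meningeal-like cells. At E11.5, 18 control and 55 gof cells had UMIs of both after thinning, of 638 and 1067 cells. Since Cxcl12 was read in a large part of this class, some overlap arises without a link. Ackr3 shares in cells with and without Cxcl12 are not given, so the counts show overlap only.

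Over 32 profiles of a library and a class with at least 50 cells, genes with a level pattern most like that of Cxcl12 included Ctsk and Alx1 (both with a Pearson r of 0.90), Osr1 and Lama2 (both 0.89), of 12393 genes ranked. For Cxcr4 they were Dynll2 (0.81), Nubp2 (0.77), Pnmal1, Emc6 and Bmp2 (each 0.73), and for Ackr3 C1qtnf4 (0.83), Fam174b and Runx1t1 (both 0.68), Sppl2b (0.67) and Atp1b2 (0.63). Between members r was -0.49 for Cxcl12 and Cxcr4, 0.27 for Cxcl12 and Ackr3 and -0.18 for Cxcr4 and Ackr3. The profiles share libraries and depths, and these values are a description.

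The rest of the pathway was followed in a list of 21 genes, of which 20 were in the files: other ligands and receptors, proteases that cut Cxcl12, and the G proteins, arrestins, receptor kinases and Rac activators downstream. In the whole libraries 0 of 13 members that reached 10 CPM were called at E11.5, where 4.39% of all genes were higher and 4.01% lower, with a median log2 ratio of -0.03 against -0.11 over all genes. At E14.5, where 3.04% of all genes were higher and 8.1% lower, 0 of 12 were higher and 1 was lower, a share near that of all genes. The lower one was Elmo1, a partner of the Rac exchange factors, at 123 and 56.6 CPM in the control and gof libraries (log2 ratio -1.11), and the median was -0.08 against -0.09. Elmo1 was called lower in most classes compared at E14.5, and in projection neurons it was at 221 and 92.0 CPM. These classes included mesenchymal or meningeal-like cells and the other neurons, in which Cxcr4 was called higher. Elmo1 was not called lower in Cajal-Retzius-like cells, in which Cxcr4 was called lower, or in GABAergic-like cells.

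In E14.5 Notum-positive cells against control tdTomato-positive cells, 15 members reached 10 CPM, 3 were higher and 3 lower, where 10.1% of all genes were higher and 26% lower, with a median of -0.22 against -0.20 over all genes. The higher ones were Adm, which encodes adrenomedullin, a further Ackr3 ligand (0.899 and 17.2 CPM in control and Notum-positive cells), Grk3, a receptor kinase (7.88 and 31.2 CPM), and Gnai1, an inhibitory G protein subunit (45.2 and 83.7 CPM). The lower ones were Elmo1 (98.8 and 27.7 CPM), the kinase Jak2 (42.4 and 17.0 CPM) and the arrestin Arrb1 (12.7 and 4.73 CPM). At E11.5, 0 of 13 were higher and 2 lower, Elmo1 (24.7 and 10.2 CPM) and Gnai2 (396 and 228 CPM), where 6.58% of all genes were higher and 8.71% lower, with a median of 0.06 against -0.10.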

How the data were processed

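The authors deposited unnormalized UMI counts, as 1 matrix of genes by barcodes per library, from 10x 3′ libraries. Cell Ranger 7.1.0 and the build mm10 are named in the submitters' processing notes. Barcodes with under 1000 genes or over 10% mitochondrial UMIs were left out (616 to 1084 per library). Doublets were removed by rank of the Scrublet score in scanpy 1.11.5 at 0.8% per 1000 barcodes (314 to 602), because Scrublet's own threshold called 0, 0, 2 and 401. Classes were gated on the number of distinct markers with a UMI, with limits set after the marker counts were seen. Cells that met no gate numbered 382 to 1920 per library. Shares were also taken in cells thinned to 3000 UMIs, which left out 103, 655, 270 and 271 cells, with Clopper-Pearson intervals. Upper limits for 0 cells are 3 cells of the total. A gene counts toward a background share from 10 CPM in either sum. The call rule was run on simulated whole libraries that held counting error only. That simulation had no spread between embryos or libraries and no small classes, so it cannot check the calls for these. The members, lists and comparisons were chosen with earlier results of these data known. The 3 members are named in every class, pathway genes by counts and their called or extreme members, and genes alike in pattern as the 5 highest correlations, of which 1 is not reported here. Embryonic days follow the series text (E11.5 and E14.5), where the sample titles give E11 and E14. Python 3.11.15, numpy 2.4.6, scipy 1.17.1, pandas 2.3.3 and matplotlib 3.10.9 were used.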

Additional observations from a re-analysis of the deposited data

Results flagged for a closer look

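The gof minus control difference in Cxcl12 lay on opposite sides of 0 at the 2 ages in 3 sets of cells, with each age's counting interval clear of 0. In all neural cells the log2 ratios at the earlier and later age were 1.74 and -0.26, a difference of -2.00. These cells include the unassigned ones, and 182 of the 286 UMIs behind the E11.5 gof value lay in 109 unassigned cells with 3 or 4 mesenchymal markers. Without such cells the ratios were 0.79 and -0.27. In neurons outside the named gates it was 1.71 and -1.62, a difference of -3.34. In tdTomato-positive neural cells it was 1.43 and -1.59, a difference of -3.02. At E14.5 the control and gof sets differed in their share of Cajal-Retzius-like cells, as given above. All levels behind these ratios were under 10 CPM. With 1 library per group the differences between ages were not tested.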

How the results depend on the processing

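Of 156 values recomputed under 14 alternative settings, 117 stayed within the counting interval of the reported value, 37 left it and 2 of those clear of 0 changed sign. Of 128 log2 ratios 125 kept their sign. The 3 changes of sign were the mesenchymal Cxcl12 ratio at E14.5, at -0.071 with 1 more marker and -0.10 as a mean over cells, and the whole-library Ackr3 ratio at E14.5, from 0.01 to -0.0085 under the stricter cell filter. The cause was not tested for these or for the values that follow. With a pseudocount of 5 CPM the whole-library Cxcl12 ratios were 1.09 at E11.5 and 0.55 at E14.5, that of hem progenitors -1.59 and the projection neuron Cxcr4 ratio -1.23. With the median log2 ratio set to 0 the whole-library Cxcr4 ratios were -0.34 and -0.31, and with all deposited barcodes the E14.5 Cxcl12 ratio was 0.71. Without doublet removal the projection neuron Cxcr4 ratio was -1.42. The mesenchymal Cxcl12 ratio became 0.83 (E11.5) and 0.85 (E14.5) under the stricter cell filter, and 0.22 at E11.5 as a mean over cells. One more marker gave an intermediate progenitor Cxcr4 ratio of -0.86.

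Of Cxcl12 UMIs, mesenchymal cells at E11.5 held 85.5% (control) and 74.9% (gof) with 1 more marker and 89.5% and 89% under the stricter filter, which gave 18.2% and 64.4% at E14.5. Mesenchymal cells with a Cxcl12 UMI at 5000 UMIs were 58.3%, 63.8% and 66% (both E11.5 libraries, then the E14.5 control) and unthinned 70.7%, 70.1%, 69.0% and 83.3%. Cajal-Retzius-like cells with a Cxcr4 UMI were 23.4% (E11.5 control) and 29.5% (E14.5 control) at 5000 UMIs, and unthinned 23.4%, 59.0% and, in E14.5 gof, 41.3%.

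Chosen after seeing the data were 4 alternatives. With 3 mesenchymal markers enough, the E11.5 shares of Cxcl12 UMIs were 93.6% and 93.8%. Without tdTomato-positive cells the mesenchymal Cxcl12 ratio at E11.5 was 0.38, the hem Ackr3 ratio -1.44 and the intermediate progenitor Cxcr4 ratio -1.26. With Notum-positive from 1 UMI the Cxcr4 ratio was 0.58. Without cells of 3 or 4 mesenchymal markers the E11.5 neural Cxcl12 ratio was 0.79. No paired analysis was possible because each group is 1 library. The number of cells limits the 46 Cajal-Retzius-like cells of the E14.5 gof library and every class under 50 cells.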
